A study of Mus musculus with 5 samples.

Results

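The genes described here are 10 components and target genes of the canonical Wnt pathway of the mouse. They include the receptors Fzd7, Lrp6, Lgr4 and Lgr5 and the feedback genes Rnf43, Znrf3 and Axin2. The others are the transcription factors Tcf7 and Tbx3 and the receptor gene Tnfrsf19. All 10 were chosen by symbol and were found among the 52029 genes of the shared expression table and in the table of the single library. Total RNA was sequenced from hepatobiliary organoids, which are self-renewing epithelial cultures grown here from primary wild-type liver stem/progenitor cells. There were 3 libraries of organoids kept together with liver endothelial cells (passage 8) and 2 libraries of organoids grown without them (passage 1), all taken at day 10. Passage and co-culture change together and cannot be told apart, and no label states that the libraries of a group are separate cultures; p-values therefore reflect how far these libraries differ, and that spread may be technical. All groups shared a medium with EGF, endothelial growth supplement, heparin, nicotinamide, serum replacement and the kinase inhibitor Y-27632, and no Wnt ligand or R-spondin is among its listed components.

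Wnt ligands bind a Frizzled receptor together with the co-receptor LRP5 or LRP6, which stops the destruction complex from degrading beta-catenin and lets it act with TCF/LEF factors on target genes. The ubiquitin ligases RNF43 and ZNRF3 remove Frizzled from the cell surface, and R-spondins bound to LGR4, LGR5 or LGR6 inhibit these ligases. Axin2, Rnf43, Znrf3, Lgr5 and Tnfrsf19 are known targets of the pathway in epithelia, and in the liver endothelial cells are a source of Wnt ligands for the hepatocytes around the central vein.

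Total counts of the co-culture libraries M9, M10 and the third were 33881617, 35878241 and 58853737, against 26466739 in M11 and 29195328 in M12 of the organoids alone. M9, M10, M11 and M12 share 1 deposited table, while the third co-culture library was deposited separately, on RefSeq genes, and has no replicate in its table. Mitochondrial genes took 6.04% of the counts of the third library and 2.46% and 2.32% in M9 and M10, against 2.80% and 2.31% in M11 and M12, and the part of this in the values of the third library was not tested. Epcam, a surface marker of biliary epithelium, had 18514 to 30776 counts in the co-cultures and 16828 and 20783 in the organoids alone. Pecam1, which marks endothelium, had 2, 2 and 10 counts in M9, M10 and the third co-culture library and 1 and 2 in M11 and M12. The endothelial genes Cdh5 and Stab2 were as low, with at most 19 counts of Cdh5 in the co-cultures and 3 in the organoids alone, and of Stab2 at most 5 and 0. The biliary genes Krt19 and Sox9 had at least 76174 and 3213 counts in the co-cultures, and at least 44854 and 3375 in the organoids alone. None of the 5 endothelial markers tested passed edgeR's test, and over all 18 listed the summed level was 13.5, 11.7 and 8.36 CPM (counts per 1000000) in M9, M10 and the third library, against 22.8 and 14.6 in M11 and M12. Sox17 and Egfl7 made up most of that sum, and the other 16 genes, a split made after their values were seen, summed to 2.63, 2.17 and 2.96 CPM in the co-cultures, against 3.14 and 2.91 CPM. In bulk RNA, fewer cells of a type and less RNA per cell cannot be told apart.

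Transcripts of Fzd7, Lgr4 and Rnf43 were more abundant in M9 and M10 than in either library of organoids alone, with log2 fold changes of 1.46, 0.53 and 0.76. Tbx3 and Tnfrsf19 were less abundant, and Tnfrsf19 had no count at all in M9 and M10. Lrp6, Znrf3, Axin2 and Tcf7 overlapped between the groups, and Lgr5 was near the detection limit in every library. At an adjusted p of 0.05, edgeR's quasi-likelihood test called 0 of the 9 genes it could test, against 2.24% of the 15900 genes tested, while 5 had an unadjusted p under 0.05, against 17.5% of all genes. DESeq2 called 2 of them, Fzd7 higher and Tnfrsf19 lower, against 1330 of the 16935 genes it tested. With limma-voom 0 of them were called, against 286 of 15900 genes. The groups did not overlap for 5 of the 9, against 49.4% of all genes: 3 were higher (24.4% of all genes) and 2 lower (25.1%). Tbx3 and Tnfrsf19 passed the filter on low counts only through the organoids alone and so had to differ. All 3 co-culture libraries were above both organoids-alone libraries for Fzd7, Lgr4 and Rnf43, against 15.2% of the 14301 genes joined across tables, and below both for Tbx3, against 17% of them. The third library by itself was above both for 4 genes (42.9% of all genes) and below both for 3 (46.1%). The median log2 fold change of the 9 was 0.12, against 0.00 over all genes.

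**Figure D1:**
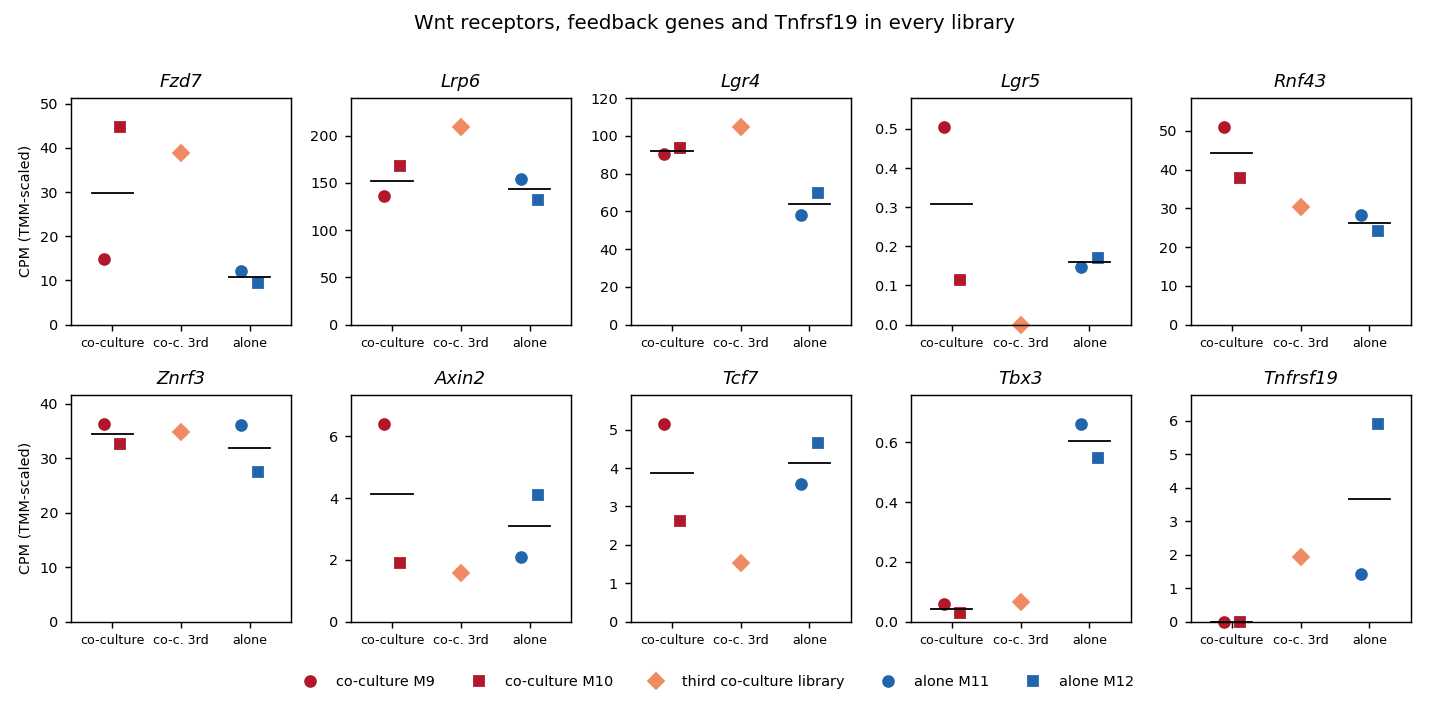
Level of each of the 10 genes in CPM (TMM-scaled, linear axis from 0 with its own scale in each panel) in M9 and M10, the third co-culture library, and M11 and M12; black bars are the means of M9 with M10 and of M11 with M12. Fzd7, Lgr4 and Rnf43 are higher in all 3 co-culture libraries, and Tnfrsf19 is at 0 in M9 and M10 but at 1.93 CPM in the third.

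Of the receptor genes Fzd7, Lrp6 and Lgr4, which could be tested, Fzd7 had the largest log2 fold change. This gene encodes a Frizzled receptor that is used by intestinal stem cells, and it (ENSMUSG00000041075) lies on the plus strand at chr1:59482424-59486955 in GRCm38. Its level was 14.8 CPM (scaled to a common library size) in M9, 44.7 CPM in M10 and 38.8 CPM in the third library, against 12.2 in M11 and 9.46 in M12. All 3 co-culture libraries were above both libraries of organoids alone, with M9 close to M11. The log2 fold change in M9 and M10 was 1.46 ± 0.52 (SE; adjusted p = 0.23, edgeR), and the third library lay 1.81 above the mean of the organoids alone, a difference with no test. Without M10 the log2 fold change was 0.45, and without M9 it was 2.06, each with a co-culture arm of 1 library. At least a 2-fold difference in the third library was found in 30.8% of the 14301 genes that could be compared, 13.2% higher and 17.6% lower. Of the 9 genes here, Fzd7 was past that size upward, and Tcf7 and Tbx3 downward.

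Levels of different genes were set side by side as CPM per kilobase of annotated exon. On that scale Fzd7 held 8.69%, 22.1% and 21.0% of the summed level of the 10 Frizzled genes in M9, M10 and the third library, against 7.15% in M11 and 5.02% in M12. It ranked 4, 2 and 2 of 10 in M9, M10 and the third library, against 5 in both M11 and M12. Fzd1, Fzd5, Fzd6 and Fzd8 were above it in both libraries of organoids alone, with Fzd6 at 6.24 and 4.75 CPM per kilobase in M9 and M10, against 8.27 and 11.1 in M11 and M12. Fzd2, a close relative of Fzd7, was at 9.76, 13.99 and 15.7 CPM in M9, M10 and the third library, against 3.85 and 2.23 CPM in M11 and M12 (log2 fold change 1.97 ± 0.40 SE, adjusted p = 0.0777, edgeR). Fzd3 fell, and it is described with the pathway lists.

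**Figure D2:**
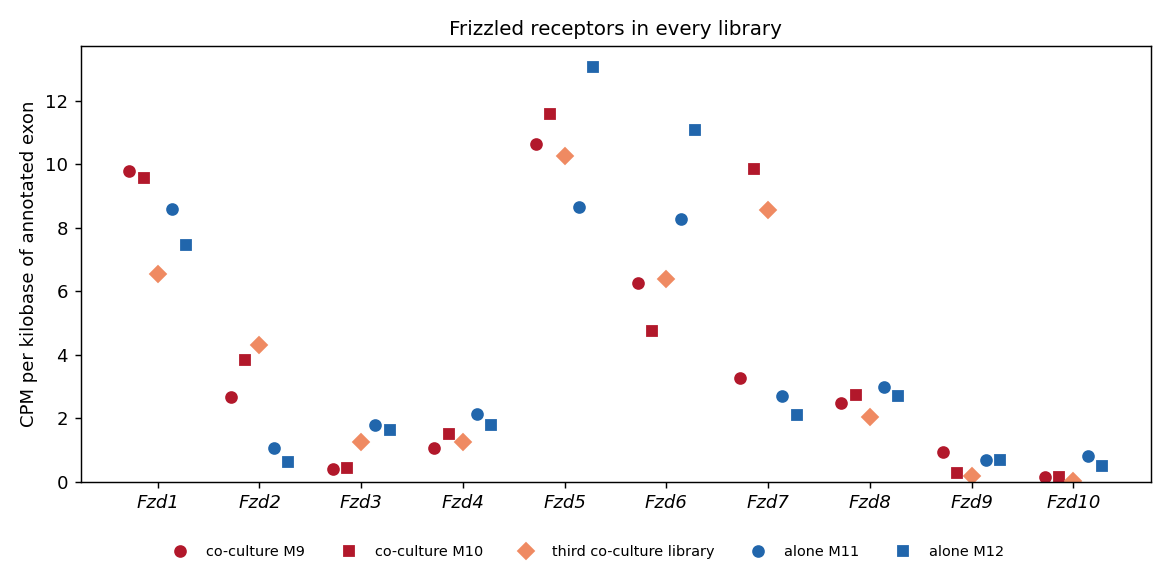
Level of the 10 Frizzled genes in CPM per kilobase of annotated exon (linear axis) in M9, M10, the third co-culture library, M11 and M12, each point 1 library. Fzd7 ranges from 2.09 in M12 to 9.85 in M10, and Fzd1, Fzd5, Fzd6 and Fzd8 exceed it in both libraries of organoids alone.

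Lrp6, the Wnt co-receptor, was at 11.1 ± 1.62 CPM per kilobase in M9 and M10 and 10.5 ± 1.16 in M11 and M12 (SD, n = 2 each). Its levels were 136 and 167 CPM in M9 and M10, 209 CPM in the third library, and 154 and 132 CPM in M11 and M12. M9 lay between M12 and M11 and M10 above both, with a log2 fold change of 0.08 ± 0.18 SE (edgeR, adjusted p = 0.866), while the third library lay 0.50 above the mean of the organoids alone. Lrp5, the other co-receptor, was higher than Lrp6 per length in every library, and Lrp6 made up 22.8%, 15.9% and 34.1% of the level of both in M9, M10 and the third library, against 29.4% and 27.0% in M11 and M12.

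Lgr4 and Lgr5 encode receptors for R-spondins, and Lgr4 made up nearly all of the family's level in every library. Lgr4 (ENSMUSG00000050199, plus strand, chr2:109917647-110014257 in GRCm38) was at 90.3, 93.4 and 104.5 CPM in M9, M10 and the third library, against 57.9 and 69.7 CPM in M11 and M12. All 3 co-culture libraries were above both libraries of organoids alone. The log2 fold change was 0.53 ± 0.16 (SE; adjusted p = 0.182, edgeR), and the third library lay 0.67 above the mean of the organoids alone. Lgr5, known as a stem cell marker of the intestine, counted 17, 4 and 0 in M9, M10 and the third library, against 4 in M11 and 5 in M12, and did not pass the filter on low counts. A count of 0 in the third library allows a level of up to 0.051 CPM (3 counts), by counting error only. Per kilobase, Lgr4 held 96.7%, 97.1% and 99.6% of the summed level of Lgr4, Lgr5 and Lgr6 in M9, M10 and the third library, against 97.0% and 97.7% in M11 and M12.

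Of the ligases that clear Frizzled receptors, Rnf43 had groups that did not overlap and Znrf3 groups that did. Rnf43 (ENSMUSG00000034177, plus strand, chr11:87662722-87735539 in GRCm38) was at 50.9 and 37.8 CPM in M9 and M10 and 30.5 CPM in the third library, against 28.3 and 24.0 CPM in M11 and M12. The 3 co-culture libraries were all above the organoids alone, the third by little. The log2 fold change was 0.76 ± 0.22 (SE; adjusted p = 0.16, edgeR), and in the third library the log2 difference was 0.18. Znrf3 was at 36.2, 32.7 and 34.8 CPM in the same co-cultures, against 36.1 and 27.5 CPM in M11 and M12. Its groups overlapped, with a log2 fold change of 0.12 ± 0.21 SE (edgeR, adjusted p = 0.836).

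Axin2, the inducible scaffold of the destruction complex and a standard readout of the pathway, had 215, 67 and 95 counts in M9, M10 and the third library, against 57 and 120 counts in M11 and M12. These are 6.38, 1.91 and 1.59 CPM, against 2.09 and 4.11 CPM. M9 was the highest library and M10 lay below both libraries of organoids alone, so the co-cultures spanned them. Its log2 fold change was 0.42 ± 0.67 (SE; adjusted p = 0.815, edgeR), and it was -0.69 without M9 and 1.04 without M10. Axin1, the constitutive relative, was at 21.4 and 19.8 CPM per kilobase in M9 and M10, against 22.7 and 23.1 in M11 and M12, while Axin2 was at 1.16 and 0.35 CPM per kilobase in M9 and M10, against 0.38 and 0.75 in M11 and M12.

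Tcf7 encodes a DNA-binding partner of beta-catenin, and its libraries stood in the same order of level as those of Axin2. It was at 5.13, 2.63 and 1.52 CPM in M9, M10 and the third library, against 3.60 and 4.66 CPM in M11 and M12. M9 was the highest library and the third the lowest, and the log2 fold change in M9 and M10 was -0.09 ± 0.45 (SE; adjusted p = 0.951, edgeR). The third library lay below the mean of the organoids alone by a log2 difference of -1.43. The most abundant TCF/LEF gene per length was Tcf7l2, at 4.83 and 11.5 CPM per kilobase in M9 and M10, against 2.75 and 3.13 in M11 and M12.

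Tbx3, a T-box transcription factor and Wnt target of the liver, was near the detection limit. It had 2, 1 and 4 counts in M9, M10 and the third library, against 18 and 16 counts in M11 and M12. Every co-culture library was below both libraries of organoids alone. The ratio of co-culture to organoids alone per total count, for M9 and M10, was 0.0704, with an exact binomial 95% interval from 0.0138 to 0.224 that covers counting error only. The adjusted p was 0.0798 (edgeR), for a gene that passed the filter on low counts only through the organoids alone and so had to differ. The gene (ENSMUSG00000018604) lies on the plus strand at chr5:119670669-119684724 in GRCm38, and its antisense neighbour Tbx3os1, which shares 115 exonic bases with it, had 0 counts in the 4 libraries of the shared table.

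Tnfrsf19 (also called Troy), a receptor of the tumour necrosis factor family that marks Wnt-dependent epithelial stem cells, had no counts in M9 and M10. It had 0, 0 and 115 counts in M9, M10 and the third library, against 39 in M11 and 172 in M12. M9 and M10 were at 0, and the third library, at 1.93 CPM, lay between M11 at 1.43 CPM and M12 at 5.89 CPM. Against a floor of 3 counts over M9 and M10 together, its level was at least 88.2-fold lower there than in M11 and M12. M12 carries much of this bound, which was 34.3-fold without M12, 137-fold without M11, 45.3-fold without M9 and 42.8-fold without M10. Tnfrsf19 passed the filter on low counts only through the organoids alone and so had to differ. The adjusted p was 0.0558 (edgeR), and it ranged from 9.28e-07 with DESeq2 to 0.691 with all 5 libraries. The fitted log2 fold change was -8.52 without M12 and -9.80 without M9, each with an arm of 1 library and resting on the prior count.

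The gene (ENSMUSG00000060548) lies on the minus strand at chr14:60963875-61046490 in GRCm38, and RefSeq gives a pair of transcription starts for it. Both promoters are shown because this gene had 0 counts in M9 and M10 and 39 or more in the other libraries. Each runs from 250 bases before to 50 bases after the start in GRCm38.p6, on the minus strand. Capitals mark TCAAAG, the core letters of the TCF/LEF motif, searched on both strands, where it also reads CTTTGA.
Tnfrsf19 promoter 1, chr14:61046806-61047105: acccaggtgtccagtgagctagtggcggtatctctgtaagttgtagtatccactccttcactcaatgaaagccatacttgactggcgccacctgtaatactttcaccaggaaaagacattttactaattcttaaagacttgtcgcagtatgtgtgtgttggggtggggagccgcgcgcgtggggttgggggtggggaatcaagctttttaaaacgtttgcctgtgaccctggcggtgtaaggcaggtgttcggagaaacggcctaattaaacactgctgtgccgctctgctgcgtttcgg
Tnfrsf19 promoter 2, chr14:61037938-61038237: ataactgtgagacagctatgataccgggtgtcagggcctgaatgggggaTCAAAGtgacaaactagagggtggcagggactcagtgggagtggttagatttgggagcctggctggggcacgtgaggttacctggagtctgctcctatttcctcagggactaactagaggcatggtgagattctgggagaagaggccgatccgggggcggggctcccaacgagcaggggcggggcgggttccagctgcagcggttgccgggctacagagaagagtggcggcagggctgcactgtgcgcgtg
The motif letters stood once in promoter 2, beginning at position -201 counted from the start, and not in promoter 1. Of 32851 RefSeq promoters of the same length, 5257 held them, and of the 9 promoters found for 6 of the 10 genes (Fzd7, Lgr4, Tcf7, Rnf43, Axin2 and Tnfrsf19) 1 did. The counts per gene do not tell the starts apart.

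The summed level of mesenchymal markers, like that of Tnfrsf19, was lowest in M9 and M10, but in the third library it lay below both libraries of organoids alone. Over 12 such markers it was 2.01 and 3.09 CPM of the total count in M9 and M10 and 8.21 in the third library, against 28.1 in M11 and 83.9 in M12. All 7 tested had a fold change below 0 in M9 and M10, and 3 of them fell (Col3a1, Rgs5 and Col6a3), against 1.25% of all genes. Of the 7, Col3a1, Col6a3, Pdgfrb and Acta2 passed the filter only through the organoids alone and so had to differ. Lum was at 0 in every library but M11, and Col3a1 had 0, 1 and 13 counts in M9, M10 and the third library, against 71 and 351 in M11 and M12.

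The other marker lists did not follow Tnfrsf19 as a whole. The summed level over 10 hepatocyte markers was 91.9, 127 and 310 CPM in M9, M10 and the third library, against 75.1 and 161 in M11 and M12. Of 6 hepatocyte markers tested, all had an unadjusted p under 0.05. Apoa1, Ttr and Ass1 had positive fold changes, Alb, Fga and Fgb negative ones, and only Alb passed the test after adjustment. Alb, Fga and Fgb passed the filter on low counts only through the organoids alone, and Apoa1 only through M9 and M10. These genes therefore had to differ. Alb had 5, 9 and 3847 counts in M9, M10 and the third library, against 442 and 1472 in M11 and M12. The summed level over 6 macrophage markers was 36.2, 57.3 and 85.7 CPM in M9, M10 and the third library, against 43.1 and 36.1 in M11 and M12. Of 3 macrophage markers tested the median log2 fold change was 0.47, with Cd68 and Csf1r positive, while Lyz2 fell and passed the filter only through the organoids alone. Of 10 biliary and progenitor markers tested 3 rose, against 0.994% of all genes tested, with a median log2 fold change of 0.34. In the third library their median log2 difference from the organoids alone was -0.05. The part of these cells in the differences of Tnfrsf19, Tbx3 and Wnt5a was not tested.

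Among 9695 genes of higher mean level, those nearest in pattern to Tnfrsf19 were Cyfip2, C3 and Gc. Nearness was the Euclidean distance of centred log2 CPM over 5 libraries. Genes of low mean level, such as Alb, were left out, although Tnfrsf19 itself is low. Over M9, M10, M11 and M12 the mean log2 CPM was -0.86 for Tnfrsf19 and 1.55 for Alb. The distances were 1.73 for Cyfip2, a regulator of actin, 1.93 for C3, the central complement component, and 2.496 for Gc, the vitamin D-binding protein. Cyfip2 was at 1.46, 2.46 and 26.6 CPM in M9, M10 and the third library, against 75.7 and 94.0 CPM in M11 and M12. Each of these 3 genes had its lowest levels in M9 and M10 and the level of the third co-culture library below both libraries of organoids alone.

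**Figure D3:**
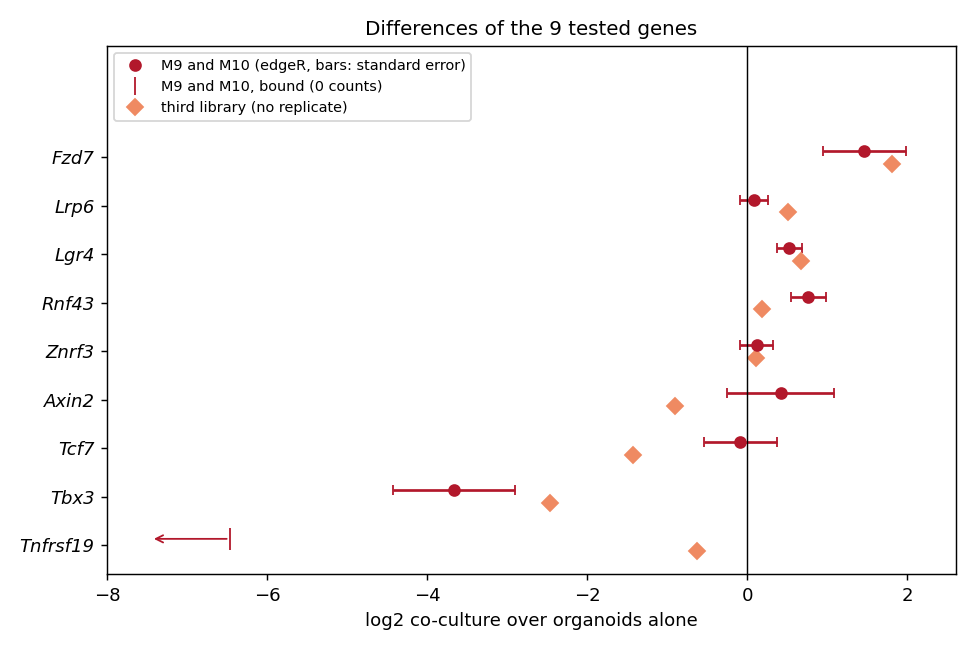
Log2 difference of the 9 tested genes, co-culture over organoids alone (horizontal axis), with standard errors for M9 and M10 (circles) and without error for the third library (diamonds). For Tnfrsf19, with 0 counts in M9 and M10, the bar and arrow mark a bound from 3 counts. Fzd7, Lgr4 and Rnf43 are to the right of 0 and Tbx3 and Tnfrsf19 to the left in both comparisons, which share M11 and M12. For Tnfrsf19 the third library lay between M11 and M12.

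By level per length the order of the 10 genes in M9 and M10 was Lgr4, Lrp6, Rnf43, Fzd7, Znrf3, Tcf7, Axin2, Lgr5, Tbx3 and Tnfrsf19, with Fzd7 overlapping both of its neighbours at 6.56 ± 4.66 CPM per kilobase (SD, n = 2). In the organoids alone it was Lgr4, Lrp6, Znrf3, Rnf43, Fzd7, Tcf7, Tnfrsf19, Axin2, Tbx3 and Lgr5. The means there ran from 10.8 CPM per kilobase for Lgr4 and 10.5 for Lrp6 through 2.39 for Fzd7 and 0.77 for Tnfrsf19 to 0.0155 for Lgr5. Neighbours whose libraries overlapped were Tcf7 with Axin2 in M9 and M10, and Lgr4 with Lrp6, Znrf3 with Rnf43, and Tnfrsf19 with Axin2 in M11 and M12.

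The wider pathway was read from 10 lists of 124 genes, of which 86 were tested in the same fit over all genes. Of these, 3 rose (Porcn, Wnt7b and Bcl9l), 3 fell (Wnt5a, Fzd3 and Prox1) and 80 did not pass. Wnt5a passed the filter on low counts only through the organoids alone and so had to differ. The median log2 fold change of the 86 was -0.06, against 0.00 over all genes tested, of which 0.994% rose and 1.25% fell. Without M11 or without M12 edgeR called 0 of these genes, and with all 5 libraries it called 0.

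Of 10 Wnt ligands tested, 1 rose and 1 fell, with a median log2 fold change of -0.11. Wnt7b, made by many epithelia, was the most abundant ligand, at 1080 and 1054 CPM in M9 and M10, against 590.3 and 512 CPM in M11 and M12. It rose by 0.95 ± 0.15 on the log2 scale (SE; adjusted p = 0.0449, edgeR), but the third library, at 396 CPM, was below the organoids alone by a log2 difference of -0.51. Wnt5a, a ligand best known for signalling without beta-catenin, had 9 and 0 counts in M9 and M10 and 912 in the third library, against 298 and 262 counts in M11 and M12. It fell in M9 and M10 (log2 fold change -6.20, adjusted p = 0.0459, edgeR), while the third library was above both libraries of organoids alone. For both Wnt5a and Tnfrsf19, M9 and M10 were at or near 0 and the third library was not. Of the ligands and R-spondins that liver endothelium is known to make, Wnt2 had 0 counts in every library, Wnt9b had 1, 1 and 6 in the co-cultures and 1 and 3 in the organoids alone, and Rspo3 had 0, 4 and 16 in the co-cultures and 6 and 7 in the organoids alone. None of the 4 R-spondins was tested, and over the list the summed counts were 0, 4 and 16 in M9, M10 and the third library, against 14 and 8 in M11 and M12.

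Of the genes of ligand secretion, Porcn rose and Wls did not pass. Porcn, the acyltransferase that lipid-modifies Wnt ligands, was at 32.5, 59.2 and 20.6 CPM in M9, M10 and the third library, against 8.88 and 9.80 CPM in M11 and M12, with all 3 co-cultures above both libraries of organoids alone. Its log2 fold change was 2.295 ± 0.33 (SE; adjusted p = 0.0348, edgeR). Wls, the carrier that brings ligands to the surface, had a log2 fold change of -0.12 ± 0.19 SE (edgeR, adjusted p = 0.809).

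Of 16 other receptors and co-receptors tested, none rose and 1 fell, with a median log2 fold change of -0.15. Fzd3, a Frizzled best known from planar polarity and axon guidance, was at 5.10 and 5.45 CPM in M9 and M10 and 15.8 CPM in the third library, against 22.8 and 20.6 CPM in M11 and M12. The log2 fold change was -2.04 ± 0.24 (SE; adjusted p = 0.0217, edgeR). The most abundant of the list were Lrp5, with a log2 fold change of 0.88 (adjusted p = 0.222, edgeR), and the co-receptor Ptk7, with one of -0.77 (adjusted p = 0.0779, edgeR).

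None of the 18 genes of the cytoplasmic relay and destruction complex passed the test, where the median log2 fold change was 0.00 and 1 gene had an unadjusted p under 0.05. Ctnnb1, which encodes beta-catenin, had a log2 fold change of 0.34 ± 0.15 SE (edgeR, adjusted p = 0.321), and the kinase gene Csnk1a1 one of 0.47 (adjusted p = 0.182, edgeR). Of 11 nuclear partners tested, Bcl9l, a co-activator that binds beta-catenin, rose, at 137 and 153 CPM in M9 and M10 and 165 CPM in the third library, against 79.2 CPM in both M11 and M12 (log2 fold change 0.88 ± 0.15 SE, adjusted p = 0.049, edgeR). The others did not pass, among them the co-repressor Tle3 at 0.55 (adjusted p = 0.171, edgeR) and the remodeller Chd8 at -0.11 (adjusted p = 0.834, edgeR).

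Of 12 other target genes tested, 1 fell, none rose, and the median log2 fold change was 0.00. Prox1, a homeobox factor of liver progenitors and a Wnt target of the intestine, was at 13.4 and 14.1 CPM in M9 and M10 and 65.6 CPM in the third library, against 38.8 and 36.3 CPM in M11 and M12. It fell in M9 and M10, by a log2 fold change of -1.45 ± 0.19 SE (edgeR, adjusted p = 0.0275), and the third library was above both libraries of organoids alone. The cyclin gene Ccnd1 was at 0.20 (adjusted p = 0.695, edgeR) and the adhesion receptor gene Cd44 at -0.63 (adjusted p = 0.471, edgeR) on the same scale. Of 5 antagonist genes tested none passed, with a median of -0.29, Kremen1 at 0.38 and Sfrp1 at -1.57, and 12 of the 17 in the table were too low to test. Of 5 pericentral hepatocyte targets tested none passed, with a median of -0.86. Glul, glutamine synthetase, was at 0.25 and Oat at 0.58, while Slc1a2 was at -1.20, Rhbg at -0.86 and Gulo at -4.80. Of 7 relatives and partners of Tnfrsf19 and Tbx3 tested none passed, with a median of -1.26, Traf6 at 0.08 and Traf2 at -0.22. Gulo, Dkk2 of the antagonists and Lingo1 of the relatives passed the filter only through the organoids alone and so had to differ.

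**Figure D4:**
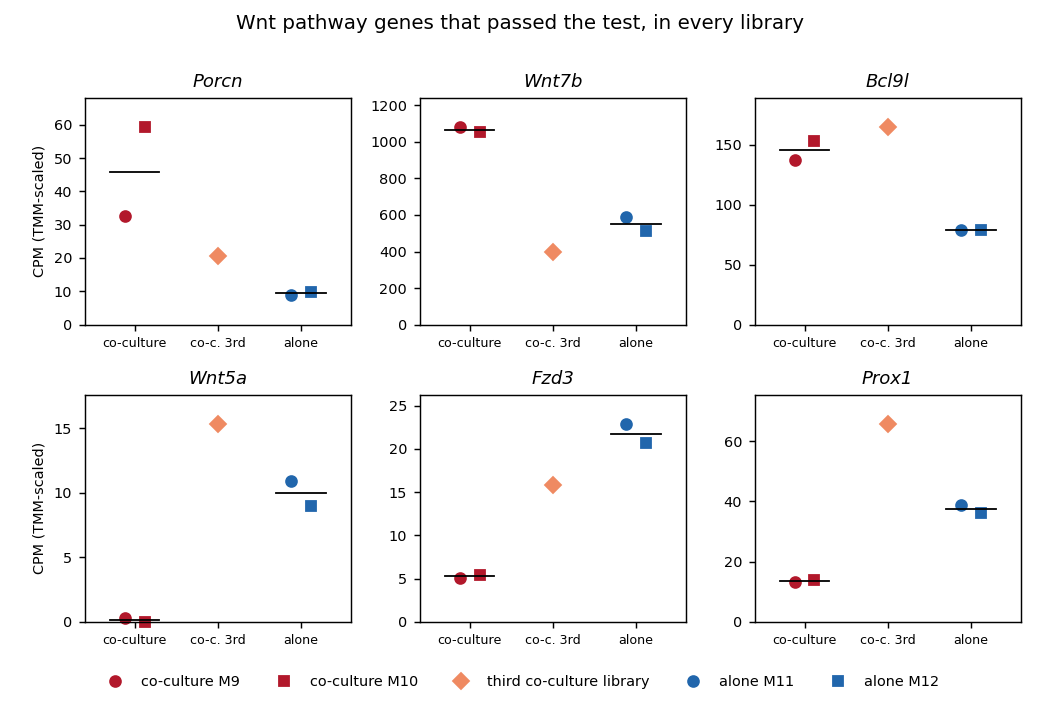
Level in CPM (TMM-scaled, linear axis from 0 with its own scale in each panel) of the 6 Wnt pathway genes that passed edgeR's test, in M9 and M10, the third co-culture library, and M11 and M12; bars are means of M9 with M10 and of M11 with M12. The third library is on the side of M9 and M10 for Porcn, Bcl9l and Fzd3, and on the other side for Wnt7b, Wnt5a and Prox1.

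**Figure D5:**
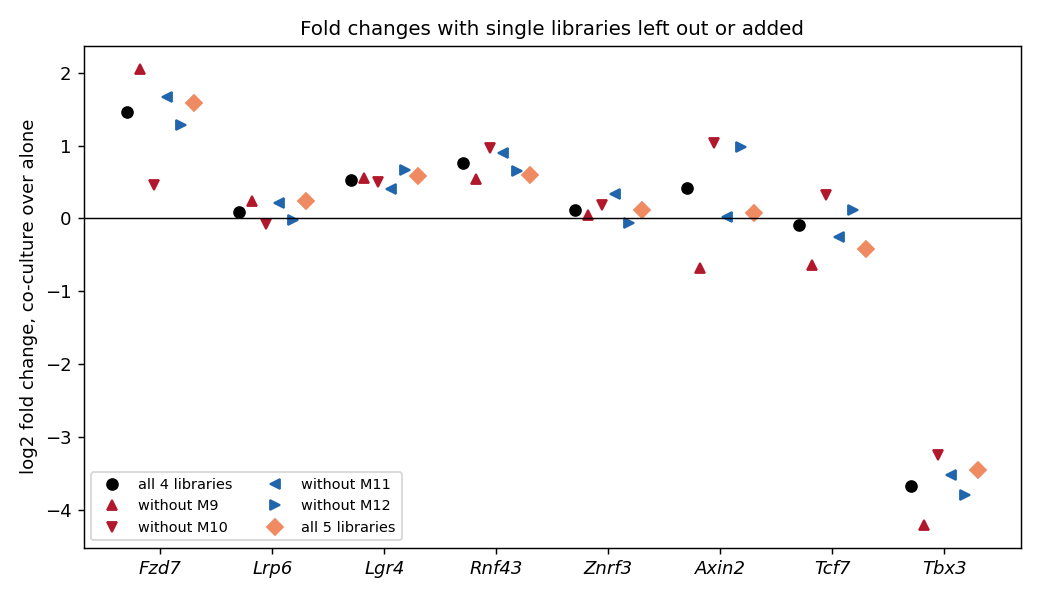
Log2 fold change, co-culture over organoids alone, of 8 of the tested genes (Tnfrsf19 left out, since its co-culture libraries M9 and M10 hold 0 counts) with all 4 libraries of the shared table, with each library left out, and with all 5 libraries. Lgr4, Rnf43, Fzd7 and Tbx3 keep their sign in every fit shown, and Axin2 runs from -0.69 without M9 to 1.04 without M10.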

How the data were processed

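The members and gene lists were chosen with earlier results of these data known. Stranded libraries of total RNA were made after ribosomal depletion, per the labels' protocols. The submitters' processing notes list StringTie 2.1.3b, Bowtie2 2.3.4.1, Trimmomatic 0.38, FastQC 0.11.7 and HISAT2 2.1.0, as well as GRCh37 and mm10, with no roles. Which counter was used, whether it read the strand, and from which annotation, was not given in the sources used here. The authors deposited estimated counts per Ensembl gene for M9, M10, M11 and M12, per the file headers. The columns of that table name the group and no sample, so 1 measure per library was kept, and the other 10 per-library columns of both tables were not used. Of 73925 lines, 1 per gene was kept, and estimated counts were rounded. Whole-number counts per RefSeq gene were deposited for the remaining co-culture library, in a column that carries another library number than its record. Its symbols matched 30844 genes with 97.7% of its counts.

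M9 and M10 were tested against M11 and M12 with edgeR 4.0.16 (R 4.3.3; filterByExpr, TMM, robust quasi-likelihood test, Benjamini-Hochberg adjustment over all genes). The SE is the size of the log2 fold change over the root of F. CPM of single genes are TMM-scaled over 4 libraries, or over 5 for the third library and for the genes nearest to Tnfrsf19. Summed levels of the marker lists and floors in CPM are per total count, without TMM. Levels per length divide CPM by the union of exons in GENCODE M21 (GRCm38), also the source of positions. Third-library differences use a prior count of 2 and have no test. On counts simulated for this comparison (15900 genes, 50 changed at each size), 18% of 2-fold and 94% of 4-fold changes were recovered, and 18 of 174 calls were false. The changed genes were drawn from those with a mean above 50 counts, and every gene had the common dispersion of 0.0695. Recovery was not measured for genes as low as Tbx3 or for a spread that differs between genes. Between M9 and M10 the chi-square per degree of freedom was 93.1, and between M11 and M12 it was 33.2. Intervals and floors cover counting error only. Alternatives were other scalings, filters and tools (DESeq2 1.42.0, limma-voom 3.58.1), each library left out, and all 5 libraries. Named beside the members were pathway genes that passed the test, the 2 most abundant tested genes of each list, 8 markers and the genes nearest to a member. The Tnfrsf19 bound with a library left out was added after the data were seen. Relatives of a member, other list genes that were not the most abundant, Lum, Wnt2, Wnt9b and Rspo3 were named after their values were seen.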

Additional observations from a re-analysis of the deposited data

How the results depend on the processing

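No paired analysis was possible because the columns of the shared table carry library numbers and not the replicate numbers of the labels. RLE and upper-quartile scaling left each of the 9 tested genes without a call and with the same sign, as did limma-voom. DESeq2 called Fzd7 (1.47) and Tnfrsf19 (-9.40), with 1330 of 16935 genes called. Without a low-count filter edgeR called Rnf43 (0.77), Tbx3 (-3.66) and Tnfrsf19 (-9.83), with 1407 of 28565 genes called. A filter of 10 counts in at least 1 library called Tnfrsf19 (-9.84), with 424 of 17409 genes called. The edgeR values of Tnfrsf19 rest on the prior count. The cause of these differences was not tested. With 1 library left out, an arm of 1 library is assumed to vary like the other group. The fold changes then ranged from 0.45 to 2.06 for Fzd7 (called without M9), -0.073 to 0.23 for Lrp6, 0.54 to 0.96 for Rnf43 (called without M10), -0.068 to 0.33 for Znrf3, -0.69 to 1.04 for Axin2, -0.64 to 0.32 for Tcf7 and -10.6 to -8.52 for Tnfrsf19 (called without M9). In the third library Tbx3 was at -2.97 with a prior count of 0.5, in place of -2.47.

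Over all genes, edgeR called 158 higher and 198 lower. DESeq2 called 644 and 686, limma-voom 102 higher, edgeR without a filter 668 and 739, and edgeR with all 5 libraries 0 and 2. With a library left out, the calls ranged from 0 (without M12) to 1220 higher and from 0 to 1275 lower (both without M9). Wnt pathway genes, 3 higher and 3 lower at first, numbered 8 and 10 with DESeq2, 1 higher with limma-voom, 11 lower without a filter, and 0 and 0 with all 5 libraries. They ranged from 0 to 11 higher and from 0 to 14 lower with a library left out. The call of Porcn was lost with limma-voom (adjusted p = 0.0642), and so was that of Bcl9l (adjusted p = 0.0574). At these depths 3 counts correspond to 0.051 to 0.113 CPM, which limits Lgr5 and Tbx3.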

Other observations

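In the pathway lists, Bambi and Cyp1a2 had far more counts in the third co-culture library than in any other, and both were named after their values were seen. Bambi, a Wnt target that encodes a decoy receptor for TGF-beta family ligands, had 2203 counts there and 114 and 91 in M9 and M10, against 76 and 83 in M11 and M12. Cyp1a2, a pericentral hepatocyte enzyme, had 330 counts there and 0 and 1 in M9 and M10, against 3 and 6 in M11 and M12. Neither value has a replicate in its table.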
